A study of Mus musculus with 6 samples.

Results

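MHC class I antigen presentation was followed through 10 genes in glomerular endothelial cells (GEC) of normal and db/db mice. The genes were chosen by name as B2m, H2-K1, H2-D1, H2-M3, Tap1, Tap2, Tapbp, Psmb8, Psmb9 and Nlrc5, and every probeset that the array annotation lists for one of them was taken, which gave 30 of 35557 probesets. Of these, 26 named 1 member alone and covered 8 genes. H2-K1 and H2-D1 had no probeset of their own. A pair of probesets listed them together with LOC547349, a record whose synonym is H2-K1, and these are called here the H2-K1-first and the H2-D1-first heavy chain probeset, after the gene that the annotation puts first. Neither is read as the level of 1 gene. The other 2 probesets listed Tapbp behind the ribosomal gene Rps3a1, at means between 12.58 and 12.64 (log2) in either group, and were left out as readings of Tapbp.

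The mice were 7 months old and all carried Tie2-GFP, a transgene in which the Tie2 promoter drives green fluorescent protein in endothelium and also in some blood-forming cells. The control group was Tie2-GFP +/+ (normal, 3 samples) and the other was Tie2-GFP DB/DB (diabetic, 3 samples), in which the leptin receptor does not work and obesity and diabetes follow. Glomeruli were sieved and dissociated, and the fluorescent cells were sorted. Each sample was measured on 1 Affymetrix Mouse Gene ST array, and the values are log2 probeset signal. The labels call the samples biological replicates and give neither the strain nor the haplotype of the H2 complex. Array medians lay between 7.00 and 7.04, and pairwise correlations ran from 0.954 to 0.971 (Pearson's r over all probesets). On principal components normal replicate 2 was the most distant array. The 16 pan-endothelial markers had a mean level between 11.55 and 11.63 in the 6 arrays. The number of arrays limits the precision.

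Class I molecules show peptides from inside the cell to CD8 T cells. Proteasomes cut proteins into peptides, and in cells that see interferon the immunoproteasome subunits Psmb8 and Psmb9 take the place of constitutive catalytic subunits. The peptides are pumped into the endoplasmic reticulum by the transporter made of Tap1 and Tap2, tapasin (Tapbp) helps to load them, and they leave for the surface in a complex of a heavy chain with the light chain beta-2 microglobulin (B2m). Nlrc5 is a transactivator of class I genes. Endothelium uses class I at rest, and interferon-gamma and NF-kappaB raise it.

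Most of these genes lie close together. In the RefSeq order of GRCm38.p6 8 of the 10 are on chromosome 17, in the H2 complex, from Tapbp to H2-M3, with B2m on chromosome 2 and Nlrc5 on chromosome 8. The sequence before the start of H2-K1 and H2-D1 shows how alike the classical heavy chain genes are. Over 177 aligned columns of their upstream windows of 250 bases 161 were identical (91%), and the longest run that they shared had 47 bases. Shown next is the stretch of 28 bases that holds an NF-kappaB site (letters GGGATTCCC on either strand) and an interferon regulatory factor core (letters AANNGAAA on either strand), with both in capitals, at chr17:34000430-34000457 (minus strand) for H2-K1 and chr17:35262924-35262951 (plus strand) for H2-D1. The stretches differed at 1 base, and no matches overlapped. That of H2-K1 lies before one of its annotated starts but within the RefSeq span of the gene, which reaches further upstream, and that of H2-D1 lies outside its gene.

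H2-K1: GGGATTCCCcatctccacagTTTCACTT
H2-D1: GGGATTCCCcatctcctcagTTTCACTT

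A longer stretch is given for B2m, which partners every heavy chain, and for the space that Psmb9 and Tap1 share. These genes start back to back, with 225 bases between their starts, so that 1 sequence lies upstream of an immunoproteasome subunit and of a transporter subunit. Capitals mark the interferon regulatory factor core, the X2 box core (TGACG) and the Y box core (CCAAT), each on either strand, and no other motif searched was found in these stretches. B2m is at chr2:122147550-122147638 (plus strand), and the Psmb9 to Tap1 stretch at chr17:34187331-34187555, written on the strand of Tap1.

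B2m: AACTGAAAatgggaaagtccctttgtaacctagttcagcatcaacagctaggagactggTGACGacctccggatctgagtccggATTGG
Psmb9 to Tap1: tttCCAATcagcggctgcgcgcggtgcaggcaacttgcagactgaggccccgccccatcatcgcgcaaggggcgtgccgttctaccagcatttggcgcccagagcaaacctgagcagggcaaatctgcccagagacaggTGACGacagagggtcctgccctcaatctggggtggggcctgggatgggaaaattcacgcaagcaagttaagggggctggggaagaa

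RefSeq windows were at hand for 8 of the 10 genes, without Tap2 and Nlrc5. The NF-kappaB site was found in 2 of 8 (H2-K1 and H2-D1), and 0.301% of 32851 windows of the same length hold it. The interferon regulatory factor core was found in 4 of 8 (B2m, H2-K1, H2-D1 and H2-M3, against 21.3% of windows), the X2 core in 6 of 8 (against 17.8%) and the Y box core in 7 of 8 (against 33.8%). A STAT dimer site (TTCNNNGAA) was found in 2 of 8, namely H2-M3 and Psmb8 (against 7.02%). These counts are not of separate sites. The X2 and Y box matches of Psmb9 and Tap1 are the same bases, read from either strand of their shared stretch. H2-K1 and H2-D1 have nearly the same upstream sequence, and H2-K1 had 2 windows, either of which could match. The shares are of single windows. The letters were chosen with these sequences in view, and a match is no more than a match of letters.

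The design asks whether class I genes differ between the glomerular endothelium of diabetic and of normal mice. No member passed limma's test when adjusted over all 20661 tested probesets, and 0% of all probesets passed. A probeset was tested where at least 3 arrays reached 100 on the linear scale. Of the 28 probesets that name 1 member or are shared by the heavy chains, 23 reached that level, and the 5 that did not were all Nlrc5. Of these 23, 0 had an unadjusted p under 0.05 in either direction, where 3.48% of all tested probesets passed upward and 2.91% passed downward. All 3 diabetic arrays lay above all 3 normal arrays in 0 of 23, against 7.01% of all tested probesets, and below them in 1 of 23, against 5.31%. Each gene was then represented by its probeset with the highest mean, which with the 2 shared heavy chain probesets gave 10 readings. Their mean was higher in db/db in 10 of 10, by 0.01 to 0.48 on the log2 scale with a median of 0.13, where 53.9% of all tested probesets were higher and the median of all was 0.01. With 1 array left out, between 7 and 10 were higher and the median ran from 0.03 to 0.23. The range within the normal arrays and the range within the diabetic arrays were each wider than the change in 10 of 10 readings, as in 71.3% of all tested probesets.

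**Figure D1:**
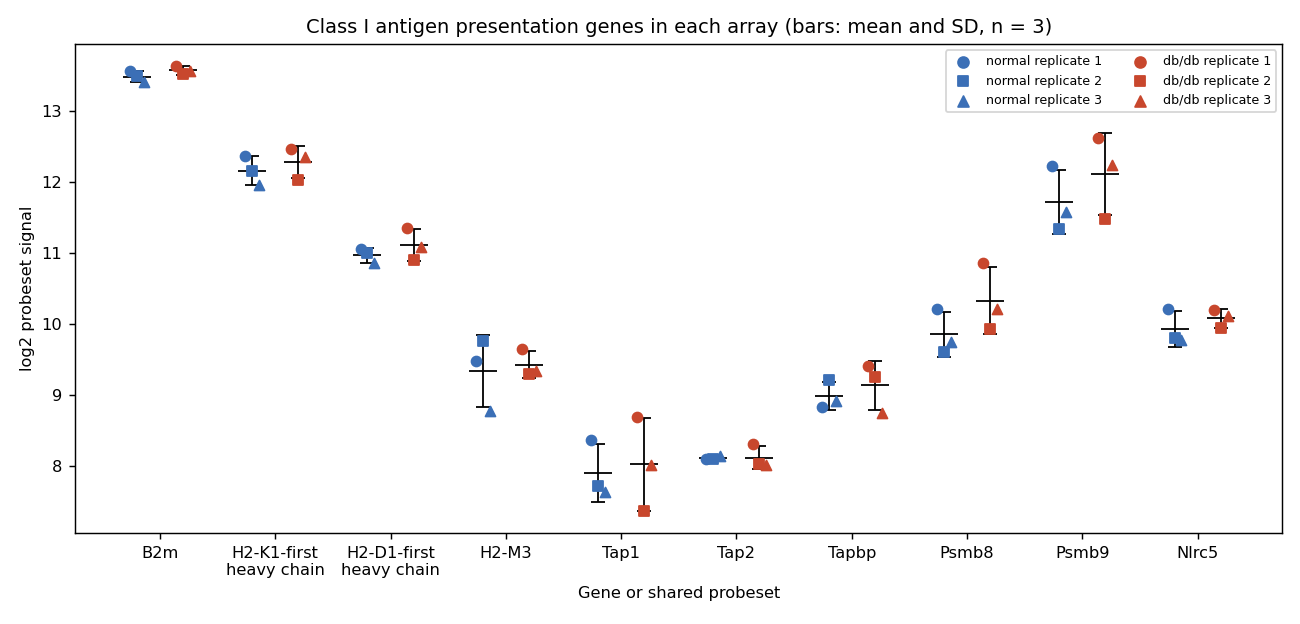
Log2 probeset signal of 8 member genes and the 2 shared heavy chain probesets in each array (symbols) of normal (blue) and db/db (red) GEC. Bars are each group's mean with its SD (n = 3). The groups overlapped for each of the 10, and diabetic replicate 1 (red circles) was the highest array for 8 of them.

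The light chain gave the steadiest reading. B2m had 13.56, 13.48 and 13.40 (log2) in normal replicates 1 to 3 and 13.63, 13.51 and 13.56 in diabetic replicates 1 to 3. Normal replicate 3 was the lowest array and diabetic replicate 1 the highest, and the groups overlapped. The change was 0.09 ± 0.08 (limma SE), with a 95% confidence interval of -0.12 to 0.29 and adjusted p = 0.903. Of all tested probesets 91.1% had a larger residual SD than B2m.

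The classical heavy chains are the peptide binding chains found on nearly all nucleated cells. The H2-K1-first probeset had 12.36, 12.16 and 11.95 (log2) in the normal arrays and 12.45, 12.03 and 12.35 in the diabetic arrays. The H2-D1-first probeset had 11.05, 10.99 and 10.85 in the normal arrays and 11.35, 10.90 and 11.08 in the diabetic arrays. On either probeset normal replicate 3 was the lowest array and diabetic replicate 1 the highest, with diabetic replicate 2 inside the normal range. The changes were 0.12 ± 0.16 (interval -0.28 to 0.52, adjusted p = 0.930) and 0.15 ± 0.14 (interval -0.20 to 0.49, adjusted p = 0.903). Because either probeset lists both genes, H2-K1 and H2-D1 cannot be told apart here.

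H2-M3 is a nonclassical heavy chain that shows N-formylated peptides, as bacteria and mitochondria make them. It had 9.47, 9.76 and 8.76 (log2) in the normal arrays and 9.64, 9.29 and 9.34 in the diabetic arrays. The 3 diabetic arrays lay inside the span of the normal arrays, which was 0.996 wide, and this gene had its highest array among the normal ones. The change was 0.09 ± 0.27 (interval -0.58 to 0.77, adjusted p = 0.972).

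Peptide transport held a variable gene and a steady one. Tap1 had 8.36, 7.71 and 7.62 (log2) in the normal arrays and 8.68, 7.36 and 8.01 in the diabetic arrays, so that diabetic arrays were both the highest and the lowest of the 6. Its change was 0.12 ± 0.38 (interval -0.82 to 1.06, adjusted p = 0.975), and only 10.4% of all tested probesets had a larger residual SD. Tap2, the partner chain of the same pump, had 8.10, 8.09 and 8.14 in the normal arrays and 8.30, 8.03 and 8.01 in the diabetic arrays. The normal arrays agreed within 0.048, and diabetic replicate 1 stood above the other 5 arrays. The change of Tap2 was 0.01 ± 0.11 (interval -0.26 to 0.27, adjusted p = 0.999). Tapbp, the loading chaperone, had 8.83, 9.20 and 8.91 in the normal arrays and 9.40, 9.25 and 8.74 in the diabetic arrays. Diabetic replicates 1 and 2 were the highest arrays for Tapbp and diabetic replicate 3 the lowest, and the change was 0.15 ± 0.20 (interval -0.36 to 0.65, adjusted p = 0.934).

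The immunoproteasome subunits had the largest changes among the 10 readings and did not pass. Psmb8 had 10.21, 9.59 and 9.74 (log2) in the normal arrays and 10.85, 9.92 and 10.20 in the diabetic arrays. Diabetic replicates 2 and 3 fell inside the normal range and diabetic replicate 1 above it. The change of Psmb8 was 0.48 ± 0.29 (1.39-fold, interval -0.23 to 1.18, adjusted p = 0.843). Psmb9 had 12.21, 11.34 and 11.58 in the normal arrays and 12.62, 11.48 and 12.23 in the diabetic arrays. Normal replicate 1 was thus nearly as high as diabetic replicate 3, and diabetic replicate 2 lay between the other normal arrays. The change of Psmb9 was 0.40 ± 0.36 (1.32-fold, interval -0.50 to 1.30, adjusted p = 0.898). When 1 array was left out the change of Psmb8 ran from 0.21 (without diabetic replicate 1) to 0.68 (without diabetic replicate 2), and was 0.66 without normal replicate 1. That of Psmb9 ran from 0.15 to 0.72 with the same arrays left out, was 0.65 without normal replicate 1 and 0.21 without normal replicate 2.

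**Figure D2:**
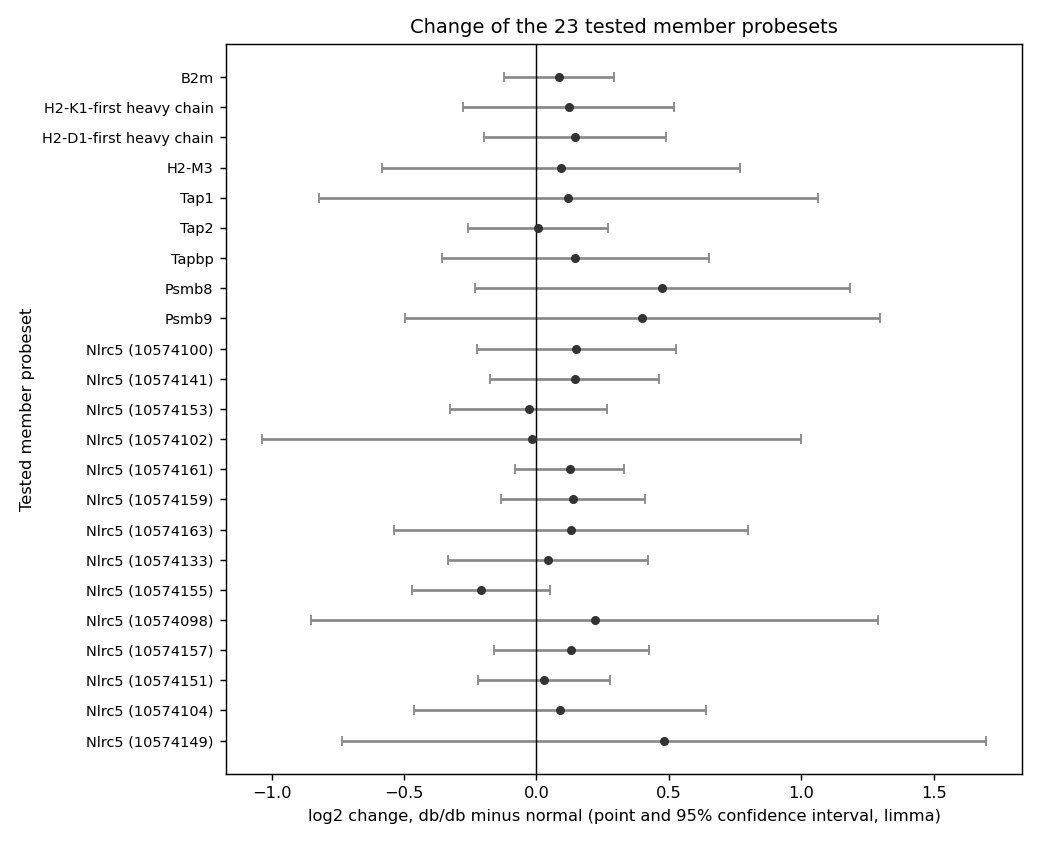
Log2 change, db/db minus normal, of the 23 tested member probesets (points) with limma's 95% confidence interval (bars). Each of the 23 intervals contained 0, and 17 of them lay between -1 and 1.

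The intervals show what these arrays could resolve. For 17 of 23 tested probesets the interval lay between -1 and 1, so that a change of 2-fold in either direction was outside it. This held for 82.6% of all tested probesets. Of the 23, 14 were Nlrc5 probesets, so the count rests mostly on 1 gene. The other 6 were Tap1, Psmb8, Psmb9 and Nlrc5 probesets 10574098 and 10574149, whose intervals held a 2-fold rise, and Nlrc5 probeset 10574102, whose interval of -1.03 to 0.998 held a 2-fold fall. A p that misses the threshold does not show that the levels were alike.

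Nlrc5, which acts with RFX factors at the promoters of class I genes, had 19 probesets, more than any other member. The one with the highest mean had 10.21, 9.79 and 9.77 (log2) in the normal arrays and 10.18, 9.93 and 10.105 in the diabetic arrays. Normal replicate 1 was the highest array and the groups overlapped. The change was 0.15 ± 0.15 (interval -0.23 to 0.53, adjusted p = 0.903). Of the 14 tested probesets of Nlrc5 11 had a higher and 3 a lower mean in db/db, with changes from -0.21 to 0.48 and a median of 0.13. Their smallest unadjusted p was 0.0954 and their smallest adjusted p was 0.822.

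The lowest change belonged to probeset 10574155 of Nlrc5. Its values were 7.62, 7.63 and 7.69 in the normal arrays and 7.57, 7.26 and 7.47 in the diabetic arrays. It was the single member probeset whose groups did not overlap, and its direction was opposite to that of the 11 with a higher mean. The largest change among the tested probesets of Nlrc5 belonged to 10574149. It had 6.75, 6.51 and 6.34 in the normal arrays and 8.11, 6.21 and 6.71 in the diabetic arrays. There only diabetic replicate 1 was high. The same array stood apart on probesets 10574135 and 10574145, which did not reach the filter's level in 3 arrays, at 7.79 and 6.30. The changes of these untested probesets were 0.96 and 0.41. The 19 probesets of Nlrc5 thus did not act as 1 reading, and their means in normal GEC ran from 4.84 to 9.92.

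**Figure D3:**
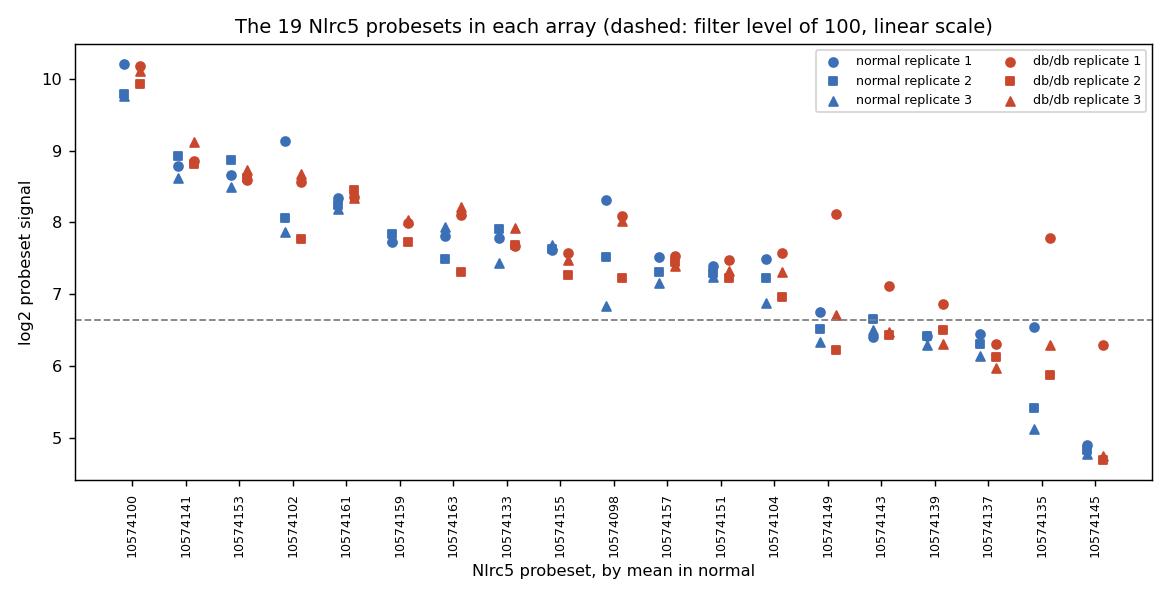
Log2 signal of the 19 Nlrc5 probesets in each array, ordered by their mean in normal GEC, with the level used to filter probesets (100, linear) dashed. Normal (blue) and db/db (red) arrays were intermixed along the series, and diabetic replicate 1 stood apart at the low end, as on probeset 10574149 at 8.11.

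The arrays of 1 group differed from each other in a way that most class I genes shared. Diabetic replicate 1 was the highest array for 8 of the 10 readings, where it was the highest for 18.8% of all tested probesets, and it lay above the 6-array mean for 10 of 10. Normal replicate 3 was the lowest array for 5 of 10, against 20.6% of all. The mean deviation of the 10 readings from their own 6-array means was 0.11, -0.12 and -0.25 (log2) in normal replicates 1 to 3. It was 0.38, -0.16 and 0.04 in diabetic replicates 1 to 3. Diabetic replicate 2 therefore lay below normal replicates 1 and 2 on this measure, and normal replicate 1 above diabetic replicates 2 and 3. Without diabetic replicate 1 the median change of the 10 readings was 0.03, with 7 higher and 3 lower, and without diabetic replicate 2 it was 0.23, with 10 higher and 0 lower. No test was made of these patterns.

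**Figure D4:**
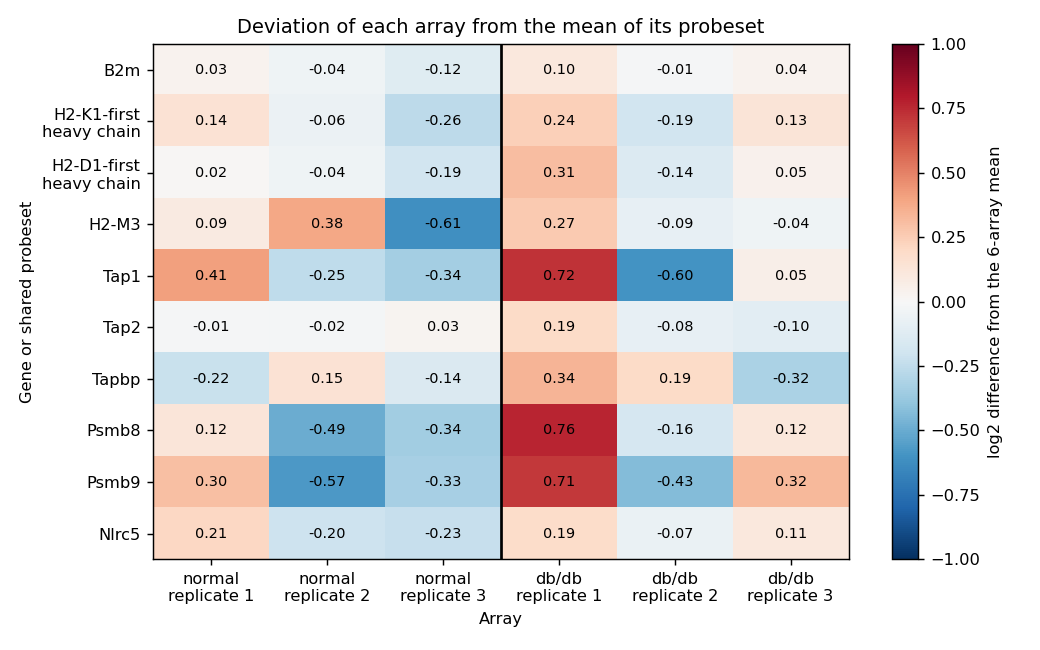
Difference of each array from the 6-array mean of the same probeset (log2, printed in each cell), for the 10 readings in rows and the arrays in columns, with normal arrays left of the line. Diabetic replicate 1 was above the mean in each row, while normal replicate 3 and diabetic replicate 2 were mostly below it.

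Markers of other cells were read in the same arrays. The 7 class II genes on the array, which antigen presenting cells express strongly, had a mean level between 6.81 and 7.59 (log2) in the normal arrays and between 6.90 and 8.13 in the diabetic arrays. The order of this mean among the diabetic arrays was that of the class I readings. Among the normal arrays it was not, with 7.59, 6.81 and 7.01 in normal replicates 1 to 3. H2-Aa, a class II alpha chain, had 8.20, 7.31 and 7.56 in the normal arrays and 10.60, 7.48 and 9.41 in the diabetic arrays. Cd74, the invariant chain of class II, had 7.48, 7.14 and 7.27 in the normal arrays and 9.53, 6.93 and 7.96 in the diabetic arrays. Diabetic replicate 1 was the highest array for H2-Aa and Cd74, and neither passed (adjusted p = 0.831 and 0.876). The other 3 tested class II genes were highest in normal replicate 1, namely H2-Ab1 at 9.53 against 9.44 in diabetic replicate 1, H2-Eb1 at 7.92 against 7.38 and H2-Ob at 7.32 against 6.63. H2-DMa and H2-Oa did not reach the filter's level in 3 arrays. For H2-DMa all diabetic arrays lay above all normal arrays, at a change of 0.68, and H2-Oa overlapped at 0.19. Of 5 tested class II genes 0 passed, 3 had a higher and 2 a lower mean in db/db, and the median change was 0.07. The changes were 1.48 ± 0.79 for H2-Aa, 0.84 ± 0.64 for Cd74 and 0.07 ± 0.82 for H2-Ab1. H2-Eb1 had -0.09 ± 0.22 and H2-Ob had -0.26 ± 0.23.

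Leukocyte markers were mostly low. Of 22 on the array 7 reached the filter's level in at least 3 arrays. Ptprc, the pan-leukocyte antigen CD45, lay between 6.06 and 6.54 over the 6 arrays without reaching it in 3 of them. The same held for Adgre1, Itgam and Csf1r of macrophages, Cd3g of T cells and Cd79a and Ms4a1 of B cells. Lyz2, Cd52, Fcer1g and Laptm5 did not reach it in 3 arrays either, but each was highest in diabetic replicate 1. Their values in that array were 7.41, 6.18, 7.12 and 6.71 (log2), above the level for Lyz2, Fcer1g and Laptm5. Lyz2 was also above it in diabetic replicate 2, at 6.82. Lyz2, Cd52, Fcer1g and Laptm5 had changes of 0.61, 0.28, 0.25 and 0.12, while S100a8 and Cd79a, also not tested, had -0.50 and -0.33. Cd3e and Cd8a of T cells were tested, with means of 7.25 and 6.70 in normal and 7.14 and 6.64 in diabetic arrays. The mean level of the 22 was between 6.30 and 6.35 in normal and between 6.20 and 6.54 in diabetic arrays, with the highest value in diabetic replicate 1 and the lowest in diabetic replicate 2. Tyrobp, a signalling adaptor of myeloid and NK cells, had 9.03, 8.68 and 8.79 in the normal arrays and 10.04, 7.45 and 8.83 in the diabetic arrays. Cd68, a macrophage marker, had 6.63, 6.72 and 6.81 in the normal arrays and 7.95, 7.59 and 6.91 in the diabetic arrays. For Cd68 all diabetic arrays lay above all normal arrays, at a change of 0.76 ± 0.27 (limma, unadjusted p = 0.0308 and adjusted p = 0.752). Of the 7 tested 0 passed, Coro1a and S100a9 had changes of 0.18 ± 0.17 and -0.29 ± 0.38, and the median was -0.06. Whether leukocytes or class II positive cells in the sort had a part in the class I values was not tested. In bulk RNA fewer cells of a type and less RNA per cell cannot be told apart.

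Markers of the remaining cell types were read likewise. The 7 podocyte markers had a mean level between 8.07 and 8.15 in normal and between 7.95 and 8.12 in diabetic arrays, of which 6 were tested and 0 passed, with Cdkn1c at -0.40 ± 0.12, Podxl, which endothelium also makes, at -0.27 ± 0.10 and Synpo at 0.24 ± 0.16. Of 9 mesangial and pericyte markers 3 were tested and 0 passed, at a mean level of 6.43 to 6.62 in normal and 6.42 to 6.68 in diabetic arrays. Of 9 proximal tubule markers 4 were tested and 0 passed, at 6.63 to 6.65 and 6.63 to 6.81. Of 6 markers of erythrocytes and platelets 6 were tested and 0 passed, at 7.36 to 7.65 and 7.11 to 7.47, with Ppbp at -0.84 ± 0.48. Of 16 pan-endothelial markers 0 passed, with changes of 0.21 ± 0.08 for Cdh5, -0.33 ± 0.12 for Tek and -0.38 ± 0.11 for Sox17.

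The rest of the class I pathway was read through lists of 79 genes, of which 59 were tested and 0 passed in either direction. Of the 59, 2 were higher and 1 lower at an unadjusted p under 0.05, near the 3.48% and 2.91% of all tested probesets, and the median change was 0.08. In 8 of the 59 all diabetic arrays lay above all normal arrays and in 1 below, shares to be read against the 7.01% and 5.31% given above.

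Of the other class I and class I-like heavy chains 17 had a probeset of their own and 11 were tested. Of the 11, 0 passed, 8 had a higher and 3 a lower mean in db/db, and the median change was 0.09. H2-Q4, a nonclassical heavy chain, had 7.30, 7.21 and 6.73 (log2) in the normal arrays and 8.28, 6.97 and 7.50 in the diabetic arrays. H2-T10 had 9.69, 9.30 and 8.92 in the normal arrays and 9.96, 9.55 and 9.68 in the diabetic arrays. On either probeset normal replicate 3 was the lowest and diabetic replicate 1 the highest array, as for the classical heavy chain probesets. Their changes were 0.50 ± 0.36 and 0.42 ± 0.22 (adjusted p = 0.872 and 0.825). Cd1d1, which shows lipids to NKT cells, had a change of -0.35 ± 0.17 (adjusted p = 0.814), and H2-T24 had -0.25 ± 0.27. Many heavy chain genes are near copies, and a probeset of 1 listed gene may still bind transcripts of another.

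A further 5 probesets listed several heavy chain genes each, of which 4 were tested and 0 passed. The one listing H2-T9, H2-T22 and H2-T10 had 9.59, 7.94 and 9.24 (log2) in the normal arrays and 8.14, 7.91 and 7.80 in the diabetic arrays. Normal replicates 1 and 3 were high and normal replicate 2 lay among the diabetic arrays. Its change was -0.97 ± 0.43 (adjusted p = 0.795), in the direction opposite to that of the probeset listing H2-T10 alone. The one listing H2-Q6 and H2-Q8 had 10.33, 9.89 and 9.19 in the normal arrays and 10.64, 9.12 and 10.39 in the diabetic arrays. Its groups overlapped, at a change of 0.25 ± 0.49.

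Among 13 tested genes of peptide loading and trimming 0 passed, 12 had a higher mean in db/db and the median was 0.08. Tapbpl, the tapasin relative that edits peptides on class I, had 8.14, 8.06 and 8.16 (log2) in the normal arrays and 8.80, 8.56 and 8.34 in the diabetic arrays. All diabetic arrays lay above all normal arrays, unlike those of Tapbp itself. The change of Tapbpl was 0.44 ± 0.13 (1.36-fold, unadjusted p = 0.0169 and adjusted p = 0.684). Uggt1, which checks the folding of glycoproteins and acts with Tapbpl, had a change of 0.22 ± 0.11 with groups that did not overlap, and Thop1, a peptidase of the cytosol, had 0.16 ± 0.10. Canx, the chaperone of new heavy chains, had 0.06 ± 0.09.

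Among 5 genes of the proteasome activators, the inducible subunit Psmb10 and the assembly factor Pomp 0 passed, with a median of 0.11. Psme2, a subunit of the interferon-inducible activator, had 9.88, 9.42 and 9.36 (log2) in the normal arrays and 10.12, 9.52 and 9.93 in the diabetic arrays. Its array order was close to that of Psmb9, and its change was 0.30 ± 0.21 (adjusted p = 0.870). Psme3, the nuclear activator that interferon does not induce, had 10.22, 10.12 and 10.03 in the normal arrays and 9.46, 9.43 and 9.62 in the diabetic arrays. Each diabetic array lay below each normal array, at a change of -0.62 ± 0.10 (unadjusted p = 0.000791 and adjusted p = 0.359). Psmb10, the third inducible catalytic subunit, had 9.92, 9.93 and 9.76 in the normal arrays and 10.01, 9.85 and 9.79 in the diabetic arrays, a change of 0.01. Pomp, which helps new proteasomes to form, had 0.12 ± 0.14.

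The 14 genes of the constitutive proteasome core had changes between -0.17 and 0.15 with a median of 0.03, and 0 passed. Psmb5 and Psmb6, the catalytic subunits that Psmb8 and Psmb9 replace, had -0.17 ± 0.12 and -0.14 ± 0.09 (adjusted p = 0.865 and 0.863). Psma2 and Psmb4 had 0.11 ± 0.09 and 0.08 ± 0.08. Of 16 tested genes of interferon input and class I transcription 0 passed, 12 had a higher mean in db/db and the median was 0.15. In 5 of the 16, Rfx5, Ifngr2 and Jak1 among them, all diabetic arrays lay above all normal arrays, against 7.01% of all tested probesets. Rfx5, a partner of Nlrc5 at the X box, had 6.78, 6.82 and 7.11 (log2) in the normal arrays and 7.32, 7.21 and 7.16 in the diabetic arrays. All diabetic arrays lay above all normal arrays by a narrow margin, at a change of 0.33 ± 0.12 (unadjusted p = 0.0330 and adjusted p = 0.754). Ifngr2, a chain of the interferon-gamma receptor, had 0.37 ± 0.16, Ifnar2 of the type I receptor had 0.14 ± 0.12, and Jak1, the kinase that both receptors use, had 0.17 ± 0.09. Jak1 lies near Lepr, the gene mutated in db/db, on chromosome 4, with 3 protein coding genes between them in the RefSeq order, and what part this linkage has in its value was not tested.

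**Figure D5:**
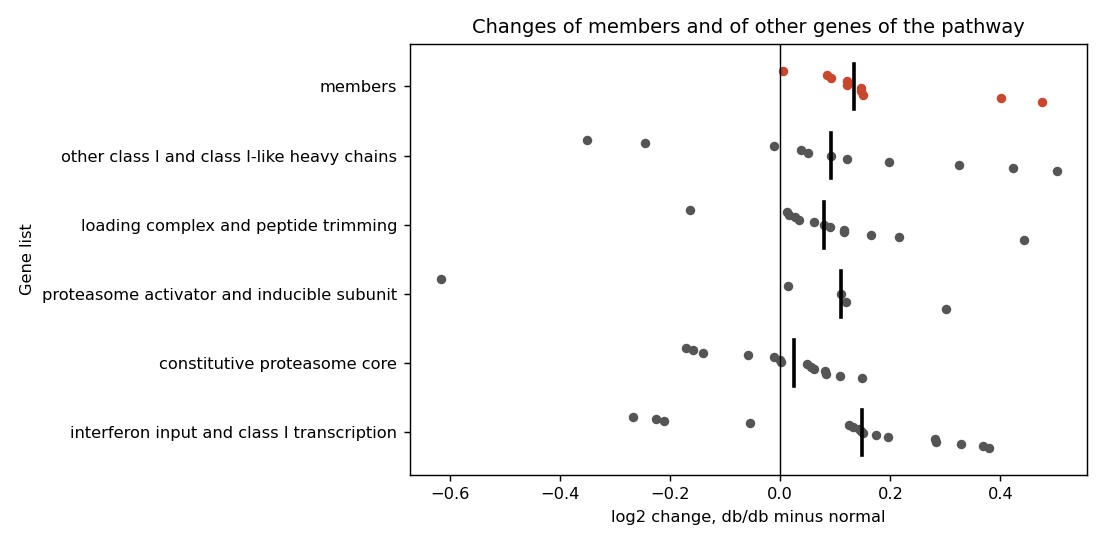
Log2 change, db/db minus normal, of the 10 class I readings (red) and of the tested genes of 5 further lists of the pathway (grey), where a black bar is a list's median. The medians lay between 0.03 and 0.15, and the lowest point, at -0.62, is Psme3.

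The genes around the members in the H2 complex were read as well, since 8 members lie there. Between Tapbp and H2-M3 106 further genes were tested by 115 probesets, with 0 passing. Of these probesets 3 were higher and 1 lower at an unadjusted limma p under 0.05, against 6.39% of all tested probesets in either direction. The higher ones were Aif1 at 1.05 ± 0.34, Zfp57 at 0.68 ± 0.21 and D17H6S53E at 0.33 ± 0.12. The lower one was Dhx16 at -0.30 ± 0.08. The median change of the 115 probesets was 0.01. The study's text calls the mice that were weighed beside the db/db mice littermates, and does not say this of the mice behind the normal arrays. Neither strain nor H2 haplotype was given in the sources used here, and a part of haplotype in these values was not tested.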

How the data were processed

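The authors deposited log2 probeset signal, 1 column per array. Their methods describe RMA in GeneSpring, but MAS5 is the method named in the submitters' notes. Values ran from 3.18 to 14.46, and after sorting, no array was more than 0.114 away from normal replicate 1, which points to normalisation between arrays. Changes are therefore relative to the rest of the array, and nothing was normalised again. The annotation gave 21789 probesets 1 gene symbol, 1621 more than 1 and 12147 none. The filter asked for 100 (linear) or more in 3 arrays and kept 20661 probesets. Groups came from the labels and were compared by limma 3.58.1 in R 4.3.3 (lmFit, eBayes, two-sided, Benjamini-Hochberg over all tested probesets, threshold 0.05), which was first tested on simulated data. Errors of changes are limma's SE. An exact permutation test of 3 against 3 cannot go below p = 0.1, so none was used.

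Members, lists, motif letters and tests were chosen with earlier results of these data known. Genes to name were all member probesets and, from each list, the 3 with the smallest p and the 1 with the highest mean, which are given only in part for the marker lists. Psmb10, H2-Ab1, H2-Eb1, Cd3e, Cd8a and the markers that were not tested were added after their values were seen. So were the named neighbours in the H2 complex and the probesets shared by several heavy chain genes. For H2-K1 and H2-D1 the shared probesets stand in the median over 10 members. Alternatives were quantile normalisation, median centring, no filter, a level of 200, an eBayes trend without and with a robust prior, array weights, a replicate block, the methods' t-test, fewer probesets in the test, averaging the probesets of a gene, and leaving out each array. In RefSeq promoter windows (GRCm38.p6) 250 bases before each start were searched. Figures used matplotlib 3.10.9 (Python 3.11.15).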

Additional observations from a re-analysis of the deposited data

How the results depend on the processing

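No member and no other pathway gene passed under any alternative run, including the fits that left out 1 array each (0 to 0). Over all probesets 1 passed with only probesets of a single listed gene (and the shared heavy chains) and 1 with 1 probeset per gene, neither a member, and 0 passed otherwise. By the methods' t-test 0 of 23 member probesets had p under 0.05 before adjustment. The median change of the 10 readings was 0.08 with array weights, 0.12 with median centring and 0.12 with the mean of a gene's probesets. It ran from 0.03 (without diabetic replicate 1) to 0.23 (without diabetic replicate 2) when 1 array was left out.

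Some changes turned in sign. Tap2 turned to -0.012 with median centring and -0.0078 with array weights, Tap1 to -0.019 and Nlrc5 probeset 10574153 to 0.0014 with array weights. With 1 array left out Tap1 ran from -0.21 to 0.45, Tap2 from -0.090 to 0.058 and H2-M3 from -0.19 to 0.31. Nlrc5 probesets 10574098 (-0.14 to 0.60), 10574102 (-0.26 to 0.37), 10574104 (-0.072 to 0.25), 10574133 (-0.092 to 0.14), 10574151 (-0.038 to 0.086), 10574153 (-0.12 to 0.069) and 10574163 (-0.039 to 0.41) also turned. The cause was not tested.

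The labels do not say whether replicate numbers pair the arrays. Over all tested probesets, deviations of same-numbered arrays from their group means correlated with r = -0.004, 0.035 and -0.030. A correlation over all probesets cannot exclude a pairing that acts on only some genes, so pairing stays undecided. With a replicate block 2 of 23 member probesets had an unadjusted p under 0.05, namely Psmb8 (0.0145, adjusted p = 0.748) and Psmb9 (0.0490, adjusted p = 0.798), against 1287 of all 20661 tested probesets, and 0 passed.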
